A study of Mus musculus with 3 samples.

Results

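Old PBS muscle was compared with young PBS muscle by single-cell RNA sequencing, 4 days after injury. Every cell barcode with at least 500 detected genes and under 10% of its UMIs (unique molecular identifiers, the counted transcripts) in mitochondrially encoded genes was taken. This gave 11403 of 12168 barcodes in young PBS and 11058 of 12568 in old PBS, or 22461 cells of the 35247 that met the same condition over the 3 libraries of the series. The muscle was the tibialis anterior of C57/BL6J mice from the colony of the National Institute of Aging, aged 3 to 4 months (young) or 24 to 26 months (old). It had been damaged by an injection of barium chloride and treated in vivo with PBS, the vehicle, and it was minced, digested and strained into a suspension of whole-muscle cells. The remaining library, from old mice given recombinant METRNL (old rMETRNL), a secreted cytokine, is quoted only beside results. The methods describe each library as a pool of 3 samples, so that 1 library stood for each age. No test between ages was possible, every interval below covers counting error only, and age cannot be told apart from any other difference between the 2 pools or libraries.

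Injury of this kind kills muscle fibres, after which monocytes and macrophages clear the debris. Muscle stem cells (MuSCs) leave quiescence, divide as myoblasts and fuse as myocytes, while fibro/adipogenic progenitors (FAPs) and tenocytes lay down matrix. The endothelium regrows from surviving capillaries and is covered again by mural cells, the pericytes and smooth muscle cells of the vessel wall. Dendritic cells take up antigen in the tissue and, once mature, carry it to lymph nodes. Interferon-stimulated genes are switched on downstream of the interferon receptors and are a common readout of interferon signals in all of these cells.

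The kept cells held 214634747 UMIs in young PBS and 175243805 in old PBS, with medians of 15609 and 13908 UMIs per cell. Cells with under 2000 UMIs made up 2.53% of young PBS and 8.31% of old PBS, and 80 barcodes were shared by both. Y-linked transcripts were present in each library, with Ddx3y at 56.5 to 67.7 CPM, and Xist was at no more than 0.103 CPM. CPM is the usual scaling of a gene's UMIs to a fixed total per library or class. Levels are listed with young PBS before old PBS, and a value that follows these is that of old rMETRNL. After removal of doublet calls, 10293 cells of young PBS and 9946 of old PBS were clustered and named from markers, and each class name ends in "-like" because it rests on transcripts alone. In the 8 classes compared gene by gene, the class's own markers summed in old PBS to between 0.834 (T/NK-like) and 1.40 (dendritic-like) times their level in young PBS.

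The cell make-up differed mainly in the smaller classes. Endothelial-like cells made up 6.09% of young PBS (627 cells) and 8.93% of old PBS (888 cells), a ratio of 1.47 (95% interval 1.32 to 1.63). Dendritic-like cells went the other way, at 6.17% and 3.55% (635 and 353 cells), a ratio of 0.575 (0.504 to 0.656). MuSC/myoblast-like cells were at 3.39% and 1.69% (349 and 168 cells), a ratio of 0.498 (0.412 to 0.601). Myocyte-like cells, the differentiating progeny of myoblasts, were lower by a similar factor, with 114 cells in young PBS and 37 in old PBS and a ratio of 0.336 (0.225 to 0.491). For tenocyte-like cells (1.84% and 1.53%) the ratio was 0.832 with an interval of 0.668 to 1.04, and it was between 0.668 and 0.692 under 5 of 6 other settings. Mural-like cells were at 1.0% and 1.38%, a ratio of 1.38 (1.06 to 1.80). The large classes differed less, macrophage/monocyte-like cells being at 60.9% and 61.3% and FAP-like cells at 16.8% and 14.2%. The FAP-like ratio of 0.845 was on the other side of 1, at 1.57, in cells of 5000 to 20000 UMIs. Old rMETRNL was at 8.15% for endothelial-like, 5.73% for dendritic-like and 3.08% for MuSC/myoblast-like cells.

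The widest gap was that of muscle fibre-like droplets, which carry transcripts of mature muscle. Young PBS held 34, old PBS 433 and old rMETRNL 128, and the ratio of old to young was 13.2 (9.29 to 19.3). They were shallow, with median UMI counts of 3012 and 2107, and mitochondrial transcripts made up 0.0867% and 0.161% of their UMIs, against 2.94% and 3.15% over all kept cells. Schwann/glial-like cells, the myelinating and support cells of nerve, were also more frequent in old PBS, at 23 and 67 cells and a ratio of 3.01 (1.85 to 5.07).

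Several of these classes were shallower in old PBS. The median UMI count per endothelial-like cell was 11024 in young PBS and 3749 in old PBS, and cells with under 2000 UMIs made up 6.38% and 23.4% of the class. Tenocyte-like cells had medians of 19802 and 10808 UMIs, and mural-like cells 9168 and 5772. In Schwann/glial-like cells they were 9677 and 4148. MuSC/myoblast-like cells (26042 and 24692) and dendritic-like cells (10560 and 11768) were close in depth. Among cells with 5000 to 20000 UMIs, the share ratio of endothelial-like cells was 1.01, while that of MuSC/myoblast-like cells was 0.622. The part of depth in the larger endothelial share was not tested further.

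**Figure D1:**
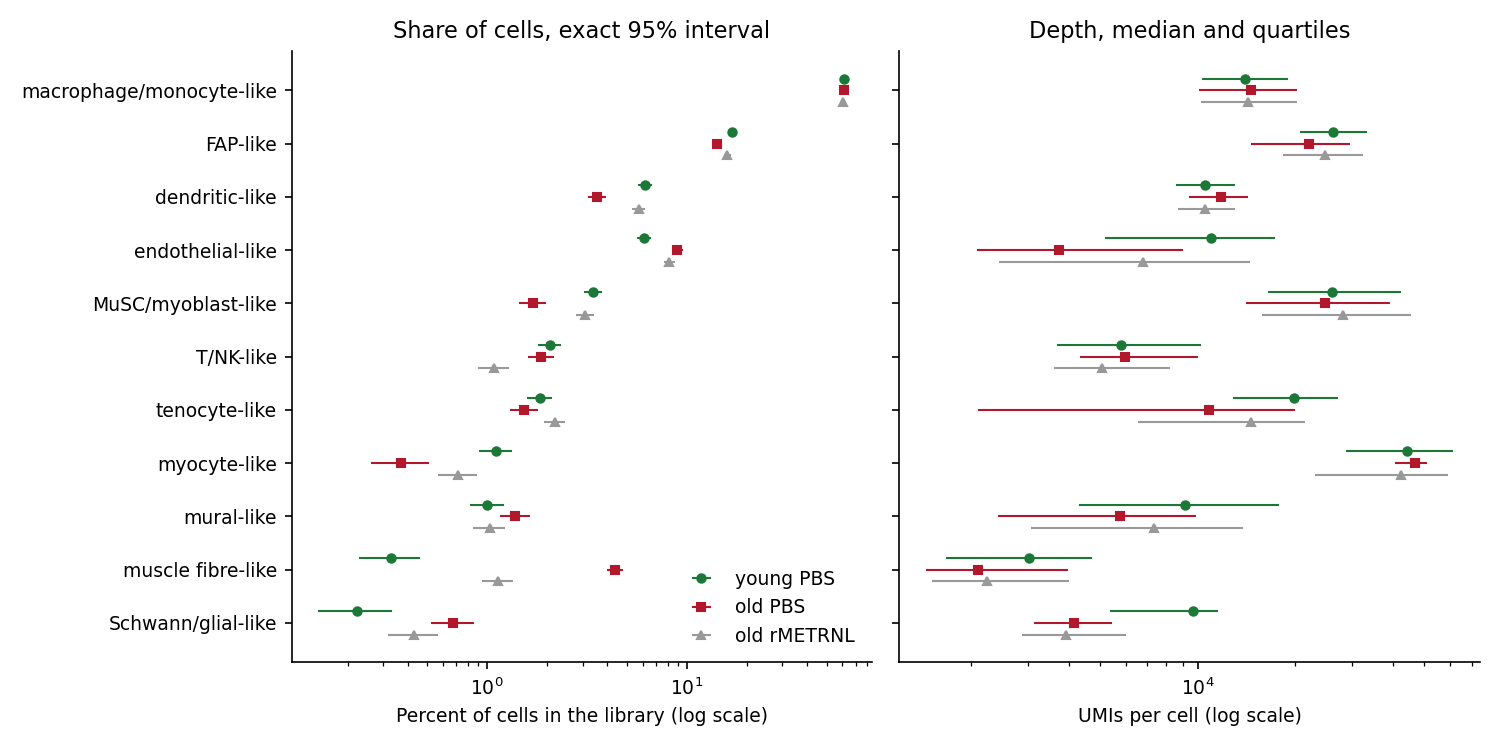
Share of cells with exact 95% binomial interval (left, percent of classified cells, log scale) and UMIs per cell with median and quartiles (right, log scale) for 11 classes in young PBS, old PBS and old rMETRNL. Dendritic-like, MuSC/myoblast-like and myocyte-like shares lay lower in old PBS than in young PBS, endothelial-like, muscle fibre-like and Schwann/glial-like shares lay higher, and old endothelial-like cells had a median of 3749 UMIs against 11024.

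Over all kept cells, transcripts of mature fast muscle fibres were the genes furthest above young PBS. Pvalb, a calcium-binding protein of fast fibres, was at 3.48 and 52.3 CPM, a ratio of 15.0 (13.9 to 16.2). Ckm, muscle creatine kinase, was at 23.6 and 196 CPM, a ratio of 8.30 (8.06 to 8.55). Of the 12 genes named as highest, 9 encode proteins of fibres: Pvalb, Ckm, the myosin light chains Myl1 and Mylpf, the troponin subunits Tnnc2, Tnnt3 and Tnni2, the skeletal actin Acta1 and the muscle cytochrome oxidase subunit Cox6a2. The other 3 were Atp6v0d2, a subunit of the proton pump (31.2 and 113 CPM), the cystine carrier Slc7a11 (15.7 and 50.2 CPM) and the matrix protease Mmp19 (45.4 and 125 CPM). At the low end stood Sfrp2, a secreted modulator of Wnt signals that FAPs make, at 287 and 99.0 CPM, and Mest, an imprinted gene of growing mesenchyme, at 194 and 77.3 CPM. The interferon-stimulated genes Slfn1, Slfn4, Ifi44, Ifi213 and Ifit3 were also among the 12 named as lowest. Ifit3, an antiviral effector, was at 159.7 and 63.2 CPM, a ratio of 0.396 (0.387 to 0.404). Ifit3 and Ifit3b, like Hspa1a and Hspa1b below, are near-identical copies between which the counting could split reads, so the level of either alone is uncertain.

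Of 15548 genes with at least 100 UMIs over both whole libraries, 235 were past 2-fold higher in old PBS (1.51%) and 314 past 2-fold lower (2.02%). Named lists stood apart from this background in different ways. All 19 interferon-stimulated genes were lower, 7 of them past 2-fold, with a median log2 ratio of -0.95 against -0.07 over all genes. Of 15 myogenic differentiation genes, 12 were lower, 8 past 2-fold, with a median of -1.34, and of 22 cell cycle genes 20 were lower, with a median of -0.42 and none past 2-fold. In a whole library fewer cells of a type and less RNA per cell cannot be told apart. The 549 genes past 2-fold were counted with doublet-called cells kept, and without those cells there were 533. Weighting each class, from which doublet-called cells had been removed, by its share of UMIs in young PBS gave 320.

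In a single class 0.248% to 2.51% of the genes tested were past 2-fold in a given direction. With shares this small, little overlap between classes would be seen in any case. Among 2610 genes with at least 100 UMIs in each of 8 classes, 2 were past 2-fold higher in at least 5 classes and 2 past 2-fold lower in at least 5. The higher ones were Acta1, in all 8, and Mylpf, in 6. The lower ones were Hspa1a, a stress-inducible heat shock protein, and Ifi27l2a, an interferon-stimulated gene, each in 5. Ifi27l2a was below 1 in every class, with ratios from 0.341 to 0.716, and Hspa1a ran from 0.390 in T/NK-like cells to 1.15 in endothelial-like cells. The genes named below by rank were recomputed in cells of at least 2000 UMIs, in cells of 5000 to 20000 UMIs, with the mean over cells and with median-ratio scaling, and in mural-like cells also without sub-clusters that scored for endothelial markers. Of those past 2-fold, the number past it in every one of these settings that gave a value was 7 of 12 higher and 6 of 12 lower in endothelial-like cells and 5 of 12 and 9 of 12 in mural-like cells. It was 10 of 12 and 12 of 12 in dendritic-like cells, 7 of 7 and 7 of 10 in MuSC/myoblast-like cells and 10 of 12 and 9 of 9 in tenocyte-like cells. These numbers cannot be compared between classes, because cells of 5000 to 20000 UMIs did not give a value for every gene. Of 24 named genes they gave 24 in dendritic-like, 21 in endothelial-like, 19 in mural-like, 12 in tenocyte-like and 0 in MuSC/myoblast-like cells.

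Fibre transcripts were found in cells that should lack them, and more so in old PBS. Acta1 was at 6.83 CPM in young and 90.9 CPM in old endothelial-like cells, at 10.1 and 205 CPM in mural-like cells, and at 5.02 and 64.7 CPM in tenocyte-like cells. In mural-like cells 1 old cell held 44.4% of the old Acta1 UMIs. The 12 fibre markers together summed to 26.8, 226 and 57.6 CPM in endothelial-like cells, and to 65.1, 142 and 83.6 CPM in macrophage/monocyte-like cells. In MuSC/myoblast-like cells, which share part of this programme, the sum was 1056 and 973 CPM. In the other 7 of the 8 classes compared the sum was highest in old PBS, the library with the most muscle fibre-like droplets, and the part of free RNA was not tested. Acta1 and other fibre genes are not named again below.

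**Figure D2:**
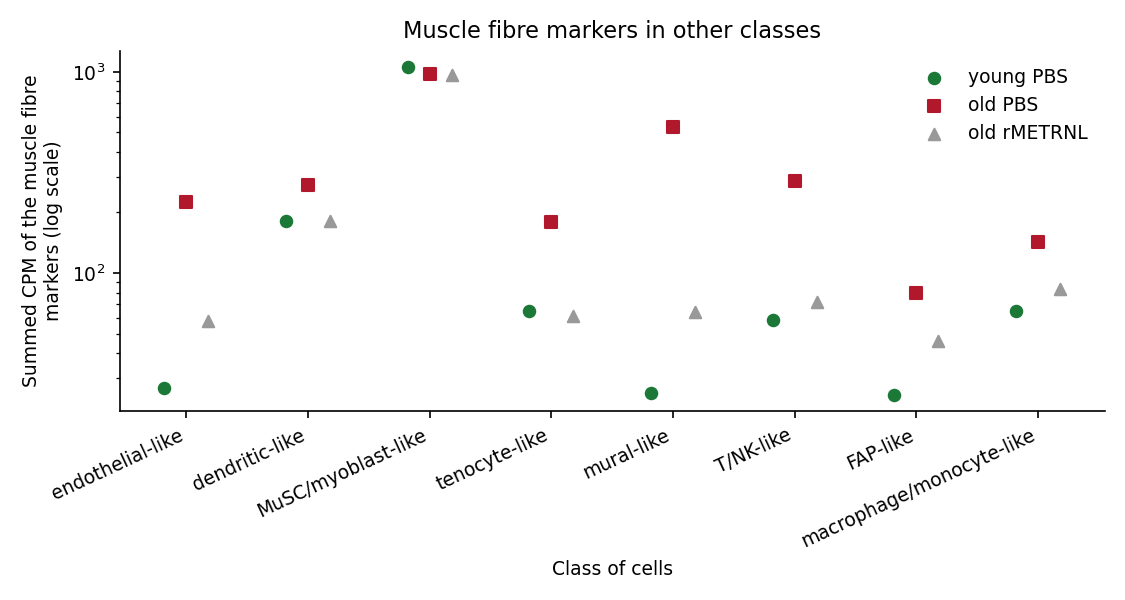
Summed CPM (log scale) of 12 muscle fibre markers in 8 classes of cells, with 1 point for each library. Old PBS lay above young PBS in 7 classes, by 8.45 times in endothelial-like cells, and slightly below it in MuSC/myoblast-like cells (1056 and 973 CPM).

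In endothelial-like cells most capillary and immediate early genes had ratios above 1, and most cell cycle and angiogenic genes had ratios below 1, few of them past 2-fold outside the cell cycle list. Of 9044 genes tested, 180 were past 2-fold higher (1.99%) and 120 past 2-fold lower (1.33%). Of the higher ones 92, and of the lower ones 48, were 5 times higher in another class, most often macrophage/monocyte-like cells for the former (34 genes) and MuSC/myoblast-like cells for the latter (26 genes). Here and in the classes below, the same share was not counted over all genes tested. Such counts are therefore not a trait of the genes past 2-fold. The 13 macrophage markers summed to 607 CPM in young and 1125 CPM in old endothelial-like cells, the 11 mural markers to 523 and 798 CPM and the 7 erythroid markers to 24.3 and 179.8 CPM. The class's own 12 markers summed to 8627 and 8857 CPM. Their part in the remaining differences was not tested, and genes 5 times higher elsewhere were kept out of the genes named by rank. The class was also a different mixture of clusters in each library. At the finer resolution of 1.6, a cluster led by the capillary genes Aqp1 and Timp4 held 121 young and 515 old cells, and one with Pgf and Prnd among its leading genes held 307 young and 198 old cells, so that the ratios below compare different mixtures of endothelial states.

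Timp4, an inhibitor of matrix metalloproteases found in capillaries, led the higher genes with 25.4, 100.2 and 38.4 CPM, a ratio of 3.94 (3.39 to 4.59). Aqp1, the water channel of continuous capillaries, was at 925, 2096 and 1291 CPM, a ratio of 2.27 (2.20 to 2.33). Car4, the carbonic anhydrase on the capillary surface, was at 24.2, 63.0 and 31.2 CPM, a ratio of 2.61 (2.21 to 3.08). Old rMETRNL lay between young and old PBS for all 3 of these genes. Genes named by rank were chosen for their gap between old and young PBS. Here and below, the place of the third library beside them is therefore no test of the treatment. Of the 12 capillary genes on the list 10 had a ratio above 1, with a median log2 ratio of 0.41 against -0.05 over all genes tested, and only Aqp1 and Car4 were past 2-fold. The exceptions were Fabp4, a fatty acid carrier (11081 and 10192 CPM), and Meox2, a transcription factor of capillary fatty acid uptake (119 and 91.1 CPM). In cells of 5000 to 20000 UMIs the same list had a median of 0.12, Timp4 a ratio of 2.0, Aqp1 1.40 and Car4 1.47. That range lies above the median depth of the cluster led by Aqp1 and Timp4 (2687 and 2283 UMIs), so that depth and mixture cannot be told apart here.

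Other genes named as higher came from several groups. Ier5l, an immediate early response gene, was at 80.8 and 270.4 CPM, a ratio of 3.35 (3.07 to 3.65) that was 2.99 in cells of 5000 to 20000 UMIs. Adamts4, a protease that cleaves aggrecan and versican, was at 191 and 507 CPM, a ratio of 2.65 (2.50 to 2.81), or 1.81 with the mean over cells. The glutamate carrier Slc1a1 (20.8 and 79.2 CPM), the growth factor Fgf9 (5.25 and 20.8 CPM), the cytokine signal inhibitor Socs1 (32.7 and 89.5 CPM) and the chaperone Hspa2 (33.7 and 90.3 CPM) were in this group too. In cells of 5000 to 20000 UMIs the ratio of Hspa2 was 1.90 in place of 2.68. All 17 immediate early genes, which respond within minutes to stimuli including tissue digestion, had ratios above 1, with a median of 0.44, and 1 was past 2-fold. That one was Egr1, at 566 and 1163 CPM and a ratio of 2.06 (1.98 to 2.13). Of the 10 VEGF and Tie receptors 8 were above 1, none past 2-fold, including the VEGF receptors Flt1 (699.6 and 1155 CPM) and Kdr (313 and 450.0 CPM).

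Among lower genes, Depp1, a target of FOXO factors, had the lowest ratio at 139, 17.9 and 73.5 CPM, a ratio of 0.128 (0.105 to 0.156). In cells of 5000 to 20000 UMIs the ratio of Depp1 was 0.202, above that of Chga (0.135). Col18a1, a basement membrane collagen, was at 424, 174 and 366 CPM, a ratio of 0.410 (0.383 to 0.439), or 0.538 in cells of 5000 to 20000 UMIs and 0.255 with the mean over cells. Igfbp3, which binds insulin-like growth factors, was at 286, 113 and 353 CPM, a ratio of 0.396 (0.364 to 0.431). Old PBS was the lowest of the 3 libraries for each of these genes. The hypoxia-inducible genes Ankrd37 (36.5 and 10.2 CPM) and Egln3, an oxygen sensor (13.8 and 4.22 CPM), were also named as lower, although the glycolysis and hypoxia list was near even, with 7 genes above 1, 9 below and a median of -0.03. Chga, a granule protein, was at 118 and 21.4 CPM, but 1 old cell held 50% of the old UMIs.

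Angiogenic genes, which mark sprouting and matrix-building endothelium, were lower in 12 of 13, with a median of -0.38, and only Igfbp3 was past 2-fold. In cells of 5000 to 20000 UMIs the median was -0.17 and the ratio of Igfbp3 0.590. With the mean over cells the median was further from 0, at -0.61, while Igfbp3 was at 0.633 and no longer past 2-fold. Apln, the tip cell ligand apelin, was at 87.0, 49.7 and 134 CPM, a ratio of 0.571 (0.499 to 0.652). The basement membrane chain Col4a1 was at 2382, 1804 and 2410 CPM, and the placental growth factor Pgf at 299, 211 and 359 CPM. In each of these 3 genes old rMETRNL was above young PBS and old PBS was below it. Cell cycle genes were lower in 20 of 22, 7 past 2-fold, with a median of -0.83. Ube2c, which drives mitotic exit, was at 145 and 38.0 CPM, and the mitotic cyclin Ccnb2 at 66.3 and 23.9 CPM, a ratio of 0.360 (0.299 to 0.432). The replication clamp Pcna was an exception at 158 and 239 CPM. With the mean over cells the cell cycle median was -0.97 and the ratio of Ccnb2 0.267, and in cells of 5000 to 20000 UMIs they were -0.10 and 0.687. Under the other settings the median was between -0.83 and -0.55.

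Venous and arterial lists gave no single direction. The venous and leukocyte adhesion list had a median of 0.50, with Selp, the adhesion receptor P-selectin, at 1025 and 1827 CPM, a ratio of 1.78 (1.73 to 1.83), and Ackr1, a chemokine receptor of venules, at 219.8 and 369 CPM. When each cell was weighted equally in place of each UMI, the list's median was -0.31 and the ratio of Selp was 0.839, so that its side was set by the weighting. Of 12 arterial genes 9 were below 1, with a median of -0.24 that was 0.05 in cells of 5000 to 20000 UMIs. Gja4, a gap junction protein, was the only one past 2-fold at 71.8 and 29.6 CPM. Gja4 was 7.44 times higher in mural-like cells. The 6 MHC class II genes, which present antigen, were above 1 with a median of 0.94, and H2-Aa was at 82.8 and 159 CPM. Each of them was at least 54.4 times higher in dendritic-like cells, and the part of free RNA was not tested.

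**Figure D3:**
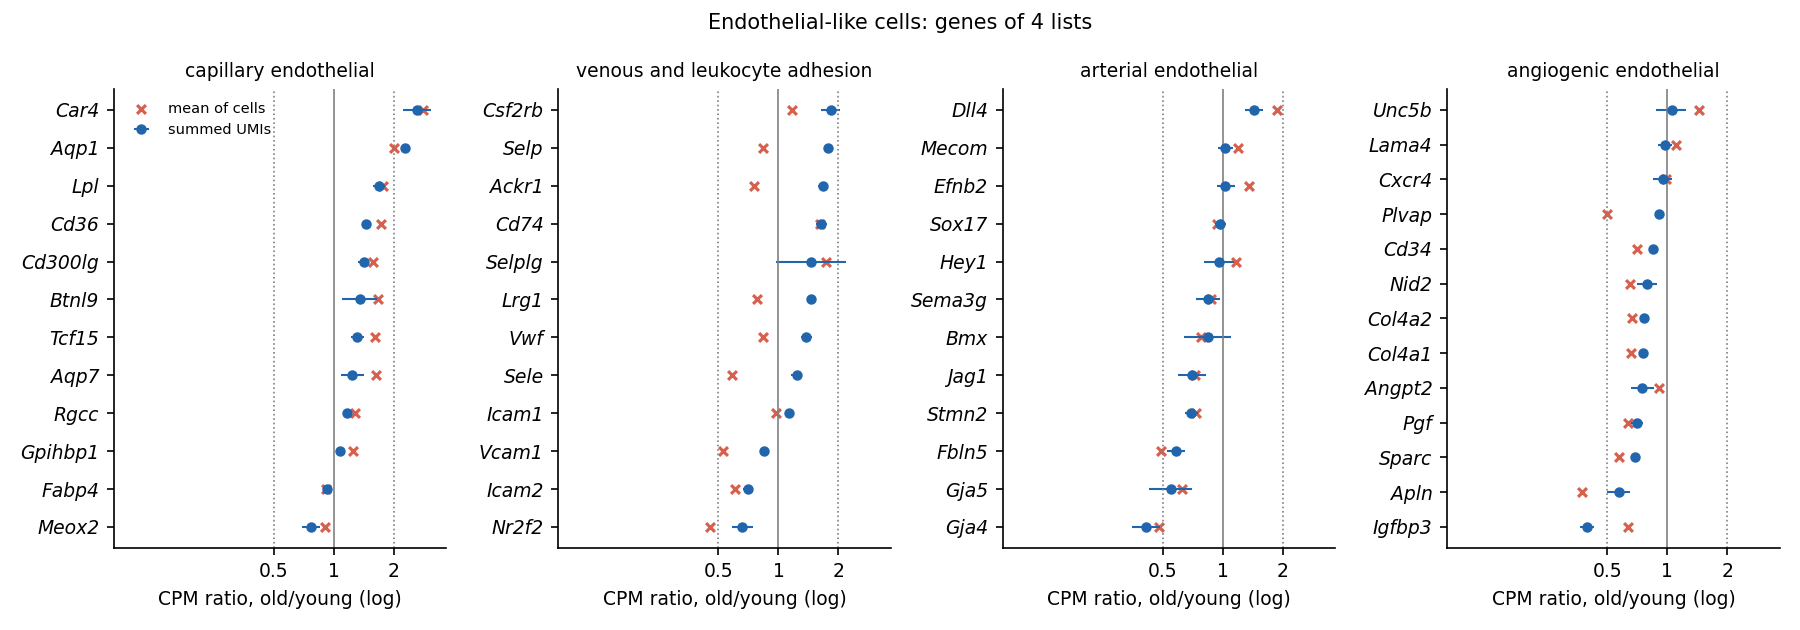
Ratio of CPM, old PBS over young PBS (log scale, dotted lines at 2-fold), for the genes of 4 endothelial lists in endothelial-like cells, as circles with exact 95% intervals from summed UMIs and as crosses from the mean over cells. Capillary genes lay mostly above 1 and angiogenic genes mostly below 1 by both measures, whereas venous genes such as Selp (1.78 and 0.839) lay on different sides of 1.

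In dendritic-like cells the genes of the mature state had ratios above 1, none past 2-fold, and most interferon-stimulated and heat shock genes had ratios below 1, with 3 of 19 and 2 of 12 past 2-fold. Depth was close in both libraries. The class joined a cluster led by Cd209a, of 547 young and 299 old cells, with one led by Ccr7 and Ccl22, of 88 and 54. The part of cell mixture in the ratios below was not tested. Of 7201 genes tested, 51 were past 2-fold higher (0.708%) and 89 past 2-fold lower (1.24%), of which 27 and 31 were 5 times higher in another class. All 14 genes of the mature list were above 1, with a median log2 ratio of 0.56 against -0.03 over all genes tested. Ccr7, the receptor that guides mature dendritic cells to lymph nodes, was at 437, 831 and 457 CPM, a ratio of 1.90 (1.81 to 2.0). Its companions Ccl22, a chemokine for regulatory T cells (114, 213 and 78.5 CPM), and the costimulatory receptor Cd40 (98.3, 159 and 105 CPM) were likewise highest in old PBS. For 3 of the 14, among them the costimulatory ligand Cd86 (231 and 238 CPM), the interval of the ratio held 1.

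Il12b, the shared subunit of interleukins 12 and 23, was at 58.5, 169.5 and 57.2 CPM, a ratio of 2.90 (2.57 to 3.27), with 5 cells holding 51.2% of its young and 55.9% of its old UMIs. Mgl2, a lectin of type 2 dendritic cells, was at 45.4, 121 and 76.3 CPM, a ratio of 2.68 (2.33 to 3.08). These ratios were 3.57 and 2.74 in cells of 5000 to 20000 UMIs. Other genes named as higher were the thioredoxin reductase Txnrd1 (177 and 359 CPM), the cystine carrier Slc7a11 (21.3 and 51.5 CPM), the iron carrier Slc11a2 (9.94 and 24.9 CPM) and transferrin, Trf (106 and 214 CPM). Mir155hg, the host transcript of an inflammatory microRNA, was at 42.9 and 92.7 CPM. Lists of type 1 and type 2 dendritic cells were mixed, with 3 of 10 and 6 of 10 genes above 1. The type 1 marker Xcr1 was at 50.7 and 35.0 CPM, whereas the type 2 gene Tnip3 was at 419.7 and 756 CPM.

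Among lower genes, Ccl4, an inflammatory chemokine, was at 579, 232 and 482 CPM, a ratio of 0.402 (0.375 to 0.430). Ly6c2, a marker of inflammatory monocytes, was at 415, 173 and 299.9 CPM, a ratio of 0.416 (0.384 to 0.451). In old PBS 1 cell held 21.2% and 5 cells held 47.4% of its UMIs, against 20.2% in 5 cells of young PBS. Ms4a6b, a membrane protein of myeloid and T cells, was at 236, 101 and 186 CPM. Old PBS was the lowest library in each case. Hspa1a was at 2825, 1245 and 2618 CPM, a ratio of 0.441 (0.428 to 0.454), and 10 of 12 heat shock genes were below 1 with a median of -0.33. Hbb-bs, a haemoglobin chain, was among the named lower genes, and 1 young cell held 81.3% of its young UMIs.

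In MuSC/myoblast-like cells no identity gene was past 2-fold, and 10 of 14 interferon-stimulated genes were past 2-fold lower. Of 8877 genes tested, 22 were past 2-fold higher (0.248%) and 51 past 2-fold lower (0.575%), the smallest shares of any class compared. Pax7, the transcription factor that defines the stem cells, was at 105 and 94.0 CPM, a ratio of 0.896 whose interval (0.801 to 1.0) reached 1. Myf5 (129 and 104 CPM) and Myod1 (145 and 103 CPM), which commit cells to the myogenic lineage, had ratios of 0.808 (0.727 to 0.896) and 0.709 (0.638 to 0.785). Of the stem cell list 6 of 11 genes were above 1 and of the myoblast list 6 of 11, with medians of 0.05 and 0.04, and none was past 2-fold. The class was a different mixture of sub-clusters in each library, one led by Myf5 and Pax7 among others holding 123 young and 75 old cells and one with Myod1 and Igfbp2 among its leading genes holding 44 and 11.

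Higher genes included Srxn1, which repairs oxidised peroxiredoxins, at 27.0, 80.7 and 46.2 CPM, a ratio of 2.98 (2.55 to 3.49). Timp3, a matrix-bound protease inhibitor, was at 150.3, 376 and 143 CPM, a ratio of 2.50 (2.34 to 2.68). Sox9, a transcription factor of cartilage and progenitors, was at 204, 371 and 261 CPM, a ratio of 1.82 (1.71 to 1.94). The metal-binding Mt1 was at 936, 1580 and 1080 CPM, and Itih5, a hyaluronan-binding protein, at 46.4, 107 and 44.2 CPM. Old PBS was the highest of the 3 libraries for these 5 genes. Among senescence and arrest genes 5 of 12 were above 1. Cdkn2a, the p16 and p19ARF locus, was at 56.8 and 84.1 CPM, a ratio of 1.48 (1.30 to 1.68), while the stress cytokine Gdf15 was at 40.9 and 17.6 CPM.

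Lower genes included Igfbp2, an insulin-like growth factor binding protein, at 68.4, 22.3 and 53.7 CPM, a ratio of 0.326 (0.263 to 0.401). H19, an imprinted long non-coding RNA, was at 216, 95.9 and 149.8 CPM, a ratio of 0.443 (0.40 to 0.491). Glycolysis and hypoxia genes were below 1 in 12 of 15, with a median of -0.48. In that list the lactate carrier Slc16a3 was at 25.2 and 3.22 CPM, a ratio of 0.128 (0.0705 to 0.215), and the oxygen sensor Egln3 at 34.8 and 14.8 CPM, a ratio of 0.425 that was 0.650 with the mean over cells. Slc16a3 was 14.7 times higher in mural-like cells, and lactate dehydrogenase Ldha, which is not, was at 799 and 572 CPM. Myog, which starts differentiation, was at 110.3 and 46.1 CPM, a ratio of 0.418 (0.360 to 0.484). Weighting cells equally gave Myog a ratio of 0.997 and the differentiation list a median of 0.09 in place of -0.52, so that the side of the list depended on the weighting.

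Interferon-stimulated genes were the list with the widest gap in MuSC/myoblast-like cells. All 14 with enough UMIs were below 1 and 10 were past 2-fold lower, with a median log2 ratio of -1.16 against -0.00 over all genes tested. Levels were low: Isg15, a ubiquitin-like modifier, was at 50.9, 14.4 and 38.1 CPM, a ratio of 0.282 (0.216 to 0.364). Bst2, which tethers viruses to the cell surface, was at 172, 74.2 and 101 CPM, a ratio of 0.431 (0.383 to 0.483). Macrophage/monocyte-like cells, the most frequent class, held 232 and 92.7 CPM of Isg15 and 900.5 and 451 CPM of Bst2, and were lower for all 19 genes, 15 past 2-fold, with a median of -1.27. That class too was a different mixture of clusters, one led by Slfn1 and Ifit2 holding 1822 young and 572 old cells and one led by Atp6v0d2 holding 884 and 1290. Macrophage markers in MuSC/myoblast-like cells summed to 172 and 176 CPM.

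The side of 1 on which these genes lay differed between classes. In dendritic-like cells 18 of 19 were below 1, with a median of -0.86, and in FAP-like cells 16 of 19, with a median of -0.70. Endothelial-like cells were split, with 13 of 19 below 1 and a median of -0.26. There Ifi27l2a was at 736 and 272 CPM and Bst2 at 1395 and 699.9 CPM, while Ifit1, an RNA-binding antiviral protein, was at 521 and 903 CPM, a ratio of 1.73 (1.67 to 1.80), and Rsad2, the antiviral enzyme viperin, at 398 and 555 CPM. Mural-like cells showed the same division, with Bst2 at 847 and 351 CPM and Ifit1 at 396 and 926 CPM, a ratio of 2.34 (2.11 to 2.60), or 1.75 without the sub-clusters described below that also scored for endothelial markers. The chemokine Cxcl10 was above 1 in 6 of 8 classes, among them dendritic-like (103 and 141 CPM), endothelial-like (1817 and 2464 CPM) and mural-like cells (1540 and 2631 CPM). It was below 1 in MuSC/myoblast-like (64.1 and 41.8 CPM) and macrophage/monocyte-like cells (363 and 144 CPM). Whether the classes differ in this respect beyond the spread between animals was not testable with 1 library for each age.

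**Figure D4:**
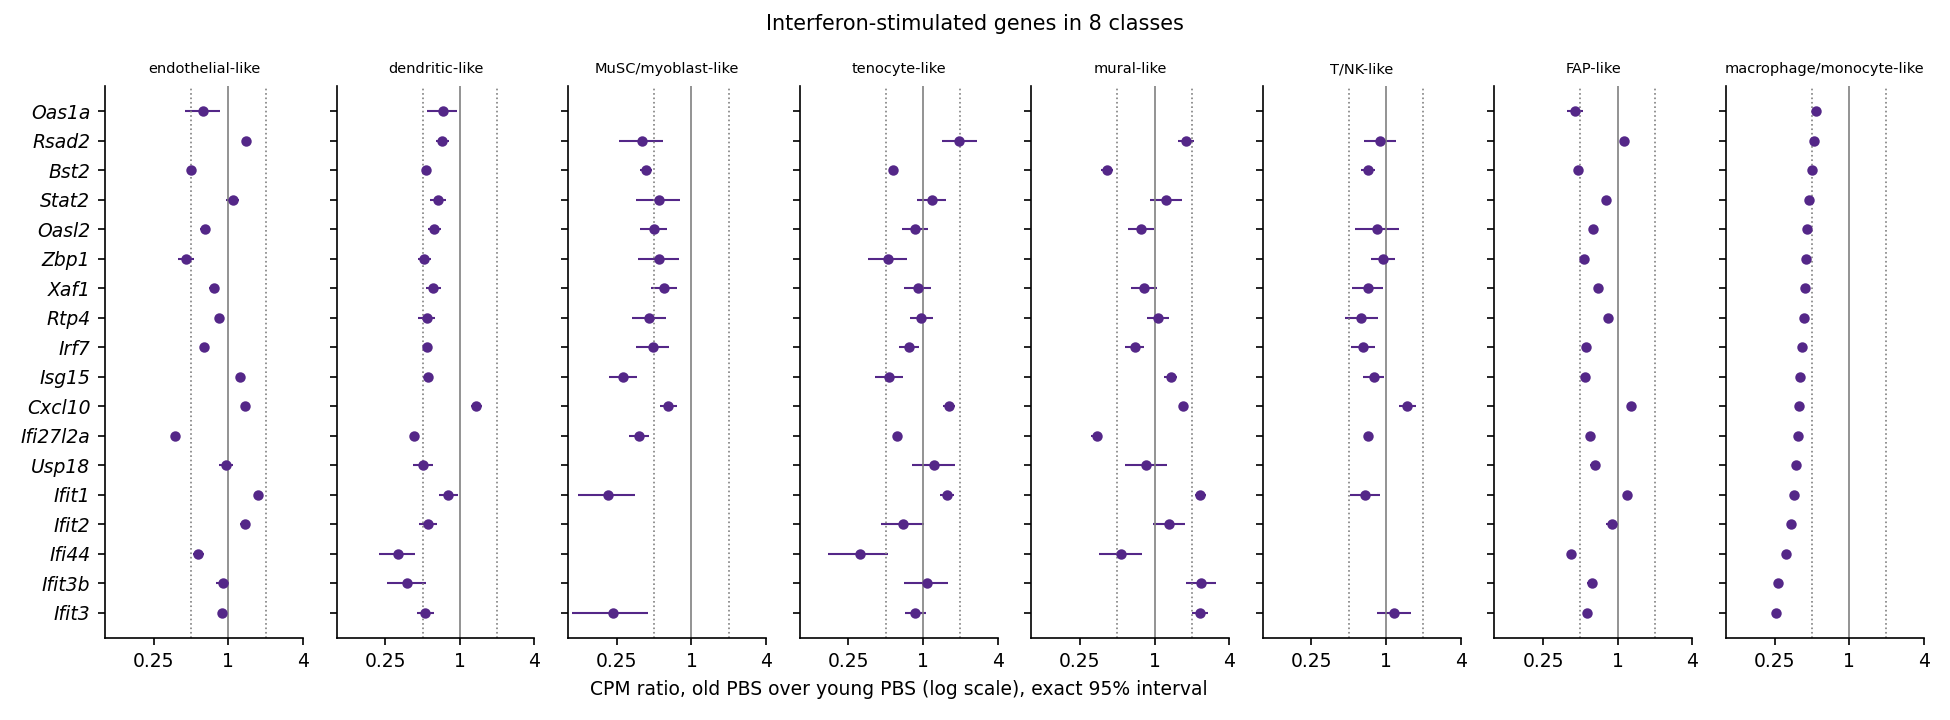
Ratio of CPM, old PBS over young PBS (log scale), with exact 95% intervals for 18 of the 19 interferon-stimulated genes in 8 classes, where dotted lines mark 2-fold and a missing point had too few UMIs. All genes drawn lay below 1 in macrophage/monocyte-like and MuSC/myoblast-like cells, whereas Ifit1 lay above 1 in endothelial-like (1.73) and mural-like cells (2.34).

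Promoter sequence of 3 of these genes is shown because, of the list genes that hold a shared upstream element, these had the lowest ratios in MuSC/myoblast-like cells. The element searched, on both strands, was a pair of GAAA copies with any 2 bases between them, the repeat bound by interferon regulatory factors, in the 250 bases before each RefSeq start (GRCm38.p6). It was found in 9 of the 14 list genes that had a RefSeq promoter (64.3%), out of 19, and in 3.46% of 27025 genes. The stretches below run 5′ to 3′ on the gene's strand with the matches in capitals, read as TTTC copies where the element lies on the other strand. They cover chr19:34640755-34640843 (plus strand) for Ifit1, chr19:34583343-34583446 (plus strand) for Ifit3 and chr4:156200845-156200926 (minus strand) for Isg15, where the matches overlap.
Ifit1: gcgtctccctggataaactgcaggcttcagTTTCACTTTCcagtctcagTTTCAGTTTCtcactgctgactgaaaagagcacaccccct
Ifit3: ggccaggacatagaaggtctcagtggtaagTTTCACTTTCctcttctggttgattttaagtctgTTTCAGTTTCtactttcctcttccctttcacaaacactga
Isg15: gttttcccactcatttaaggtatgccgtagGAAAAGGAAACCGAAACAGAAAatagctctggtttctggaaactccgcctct
Ifit1 and Ifit3 had 2 matches each and Isg15 had 3. The ratios of Ifit1, Ifit3 and Isg15 in MuSC/myoblast-like cells were 0.213, 0.233 and 0.282, and in endothelial-like cells 1.73, 0.889 and 1.25. In MuSC/myoblast-like cells Ifit3 was at only 9.20 and 2.15 CPM, with an interval of 0.108 to 0.447, and its reads could be split with Ifit3b. Bst2, which also had 2 matches, was below 1 in both classes and in mural-like cells. A match in these letters is a description of the sequence and not a binding site.

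In tenocyte-like cells no tendon gene was past 2-fold, and 11 of 12 heat shock genes had ratios below 1. Of 6025 genes tested, 80 were past 2-fold higher (1.33%) and 51 past 2-fold lower (0.846%). Of the higher ones 51 were 5 times higher in another class, and macrophage markers summed to 799, 1800 and 1170 CPM. None of the 17 tendon genes was past 2-fold, 7 being above 1 and 10 below, with a median of -0.16. Fmod, a collagen-binding proteoglycan of tendon, was at 4026 and 5651 CPM, and Tnmd, a tendon membrane protein, at 1953 and 2222 CPM. Thbs4, a matrix glycoprotein, was at 11371 and 10524 CPM, and its relative Comp at 2260 and 1267 CPM, a ratio of 0.561 (0.537 to 0.586) that was 0.994 in cells of 5000 to 20000 UMIs. The 24 extracellular matrix genes were divided, 11 above 1 and 13 below, with a median of -0.04.

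Spon2, a secreted matrix protein, was at 54.5, 249 and 144 CPM, a ratio of 4.57 (3.89 to 5.39), or 6.45 in cells of 5000 to 20000 UMIs. Ccnb1ip1, which ranked above it at 14.6 and 110.2 CPM, had 60.0% of its old UMIs in 5 cells. Txnip, an inhibitor of thioredoxin, was at 100.5, 329 and 156 CPM, and Tnxb, a tenascin, at 102, 225 and 264 CPM. The Wnt modulators Sfrp4 (104, 303 and 456 CPM) and Dkk2 (48.5, 115 and 113 CPM) were higher in both old libraries than in young PBS. Over old PBS, 5 cells held 55.3% of the Sfrp4 and 45.3% of the Dkk2 UMIs, and with the mean over cells the ratio of Dkk2 was 1.40 in place of 2.36. Another Wnt modulator, Wif1, was lower in both, at 207, 80.8 and 116 CPM, a ratio of 0.390 (0.328 to 0.461). Fn1, fibronectin, was at 4048, 2086 and 2837 CPM, a ratio of 0.515 (0.498 to 0.533), and the adhesion receptor Vcam1 at 252, 103 and 114 CPM. Heat shock genes were below 1 in 11 of 12, 3 past 2-fold, with a median of -0.67, and Hspa1a was at 769, 312 and 1048 CPM. Slpi, a protease inhibitor, was at 244 and 35.3 CPM, but 1 old cell held 58.3% of the old UMIs.

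In mural-like cells immediate early genes had ratios above 1 and nearly all matrix genes had ratios below 1, with 3 of each list past 2-fold. Of 3788 genes tested, 95 were past 2-fold higher (2.51%) and 67 past 2-fold lower (1.77%), in 103 young and 137 old cells. Endothelial markers summed to 4029 CPM in young and 3568 CPM in old mural-like cells and FAP markers to 2578 and 1812 CPM, and their part in the differences was not tested. Without the sub-clusters that also scored for endothelial markers 70 young and 98 old cells were left and 83 genes were past 2-fold. The class was also a different mixture of sub-clusters, one led by Rgs5 and Abcc9 at the lowest depth holding 42 young and 67 old cells and one with Acta2 and Rasl11a among its leading genes holding 2 and 11. All 17 immediate early genes were above 1, 3 past 2-fold, with a median log2 ratio of 0.58 against -0.06 over all genes tested. Egr1 was at 820.4, 2011 and 1421 CPM, a ratio of 2.45 (2.28 to 2.64) that was 2.32 without those sub-clusters. Cdkn1a, the p21 inhibitor of the cell cycle, was at 431, 1007 and 901 CPM, a ratio of 2.34 (2.11 to 2.59), and 1.75 without them. For Nr4a2, an inducible nuclear receptor (141 and 436 CPM), the ratio was 3.1 with and 1.11 without those cells.

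Matrix genes were below 1 in 21 of 22, 3 past 2-fold, with a median of -0.73 that was -0.89 without the endothelial-scoring sub-clusters. Col15a1, a basement membrane collagen, was at 445, 186 and 265 CPM, a ratio of 0.418 (0.354 to 0.491), and 0.645 without those sub-clusters. Sparc, a collagen chaperone, was at 5656, 3191 and 3844 CPM, a ratio of 0.564 (0.542 to 0.588). The fibrillar collagens Col1a1 (619 and 285 CPM) and Col3a1 (945 and 444 CPM) were past 2-fold lower, but each was at least 30.1 times higher in another class. Ccnd1, the cyclin of cell cycle entry, was at 181, 44.6 and 105 CPM, a ratio of 0.246 (0.176 to 0.337), and Cd248, a marker of activated pericytes, at 220.3, 65.4 and 61.0 CPM, a ratio of 0.297 (0.225 to 0.387). The pericyte list was near even, 9 of 12 being above 1 with a median of 0.14, and Rgs5, a pericyte regulator of G proteins, was at 7244 and 7910 CPM. The contractile list had a median of 0.28, with the smooth muscle myosin Myh11 at 469 and 869 CPM, and this median was below 0 under 5 other settings.

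Ribosomal protein and nuclear-encoded respiratory chain genes were shifted slightly and broadly. Ribosomal protein genes were below 1 in 78 of 81 in endothelial-like cells, with a median of -0.24, and in 80 of 81 in mural-like cells, with a median of -0.38. In FAP-like cells 80 of 82 were below 1, whereas in dendritic-like cells 44 of 81 were above 1 and in tenocyte-like cells 59 of 81. Respiratory chain genes were below 1 in all 71 tested in endothelial-like cells, with a median of -0.28, in 62 of 70 in mural-like cells, with a median of -0.25, and in 71 of 74 in FAP-like cells. The same side held most of them in dendritic-like (63 of 72), MuSC/myoblast-like (58 of 72) and tenocyte-like cells (57 of 71), with medians of -0.09, -0.05 and -0.12. Mitochondrially encoded genes had medians on the other side in endothelial-like (0.23), mural-like (0.26), dendritic-like (0.20) and MuSC/myoblast-like cells (0.10). In tenocyte-like cells their median was -0.10. In cells of 5000 to 20000 UMIs the medians of the ribosomal list were -0.17 in endothelial-like and -0.23 in mural-like cells, those of the respiratory list -0.23 and -0.27, and those of the immediate early list 0.28 and 0.82, each on the same side as before.

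**Figure D5:**
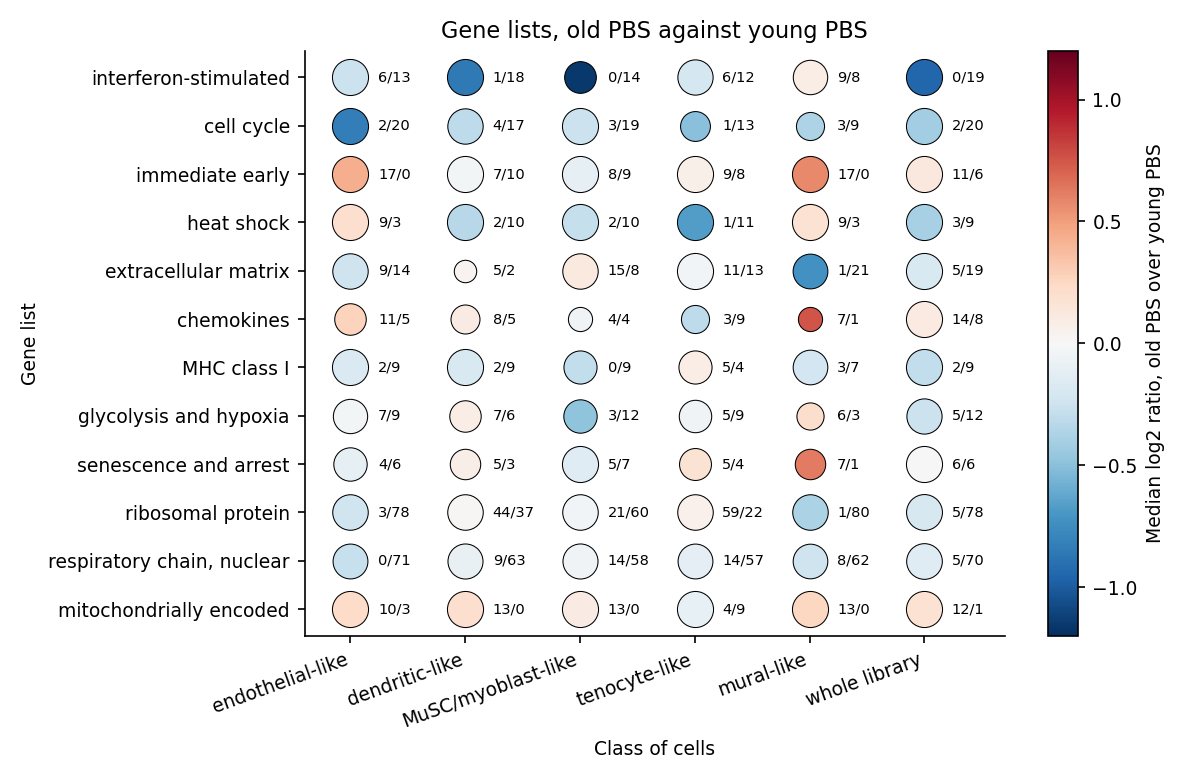
Median log2 ratio of CPM, old PBS over young PBS (colour), for 12 gene lists in 5 classes and in the whole library, with the number of genes above and below 1 beside each circle and circle area rising with the share of the list that was tested. Interferon-stimulated genes were lowest in MuSC/myoblast-like cells (-1.16), cell cycle genes in endothelial-like cells (-0.83) and matrix genes in mural-like cells (-0.73).

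The remaining classes are given for comparison. T/NK-like cells had 28 of 4143 genes past 2-fold higher (0.676%) and 44 lower (1.06%). Cd8b1 and Cd8a, the chains of the CD8 coreceptor of T cells, were at 87.5 and 333 CPM and at 41.2 and 148 CPM, and the NK receptor Klrb1c was at 154 and 31.5 CPM. This class joined a T cell cluster of 107 young and 148 old cells with an NK cluster of 105 and 37, so that its ratios compare different mixtures of cells. FAP-like cells had 169 of 12481 genes past 2-fold higher (1.35%) and 167 lower (1.34%). Hmcn2, a large matrix protein, was at 14.1 and 68.9 CPM, and the fibrillin Fbn2 at 54.4 and 12 CPM. At resolution 1.6 a FAP-like cluster led by Myoc, Gsn and Hmcn2 held 115 young and 269 old cells, so that these ratios too compare different mixtures. Macrophage/monocyte-like cells had 145 of 12489 genes past 2-fold higher (1.16%) and 156 lower (1.25%), with Mmp19 at 54.6 and 170.1 CPM and the interferon-stimulated Slfn1 at 71.1 and 19.6 CPM.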

How the data were processed

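Per the labels and the file headers, the authors deposited raw UMI counts per gene and barcode, made with Cell Ranger (versions 3.1.0 and 5.0.0 in the submitters' processing notes, another in the methods). The submitters' notes name mm10, and these deposited counts carry no normalization. A minimum of 500 genes and a maximum of 10% mitochondrial UMIs per cell were set. Scrublet (in scanpy 1.11.5) scored doublets. Since its own cutoff marked only 2, 2 and 3 cells, the top scores were taken at 0.8% per 1000 barcodes and left out (9.73% of young PBS, 10.1% of old PBS, 11.2% of old rMETRNL), except from whole-library sums. Clustering used 2000 variable genes, 30 principal components, 20 neighbours and Leiden resolution 0.8 over the 3 libraries. Names came from the markers of 15 classes, at least 3 markers of a class being detected, and a cluster that also scored for another class was split further.

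UMIs were summed per class (minimum 50 cells in each library) and scaled to CPM. Ratios are old PBS over young PBS, with the exact 95% interval from the binomial law of 2 counts. Shares have Clopper-Pearson intervals. Genes needed 100 UMIs over both libraries, and list medians are of log2 ratios with 0.5 added to each count. The 95% interval of a list median was read from the ranked ratios of its genes. It reflects the spread between genes and treats them as independent. Named genes were the 12 highest and the 12 lowest by the interval bound nearest 1 (5 in the T/NK, FAP and macrophage classes), seen in 10% of cells of the higher library and not 5 times higher in another class, and any gene of the lists. Members and lists were chosen with earlier results of these data known. Alternatives varied the filter, doublets, resolution, depth, UMI minimum, scaling and weighting of cells. Ratios and counts of calls were tested on simulated data. No free RNA was subtracted. Values of 1 gene of the interferon-stimulated list, which is counted in its totals, are not reported here. Python 3.11.15, scipy 1.17.1 and leidenalg 0.10.2 were used.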

Additional observations from a re-analysis of the deposited data

How the results depend on the processing

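No gene named by rank changed side of 1 in the depth ranges, with the mean over cells, with median-ratio scaling or without the mural sub-clusters, where these gave a value. The other alternatives were not run for single genes. Of the share ratios, cells of 5000 to 20000 UMIs (an alternative chosen after seeing the data) moved those of FAP-like cells to 1.57, the other side of 1, endothelial-like to 1.01, T/NK-like to 1.11, Schwann/glial-like to 1.52, MuSC/myoblast-like to 0.622 and myocyte-like cells to 0.505. With at least 2000 UMIs per cell they were 1.27 (endothelial-like) and 1.04 (macrophage/monocyte-like), 0.966 for the latter at resolution 1.6, 0.947 for FAP-like cells under the stricter filter (1000 genes, 5% mitochondrial) and 0.668 for tenocyte-like cells with doublets kept.

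The number of genes past 2-fold followed the UMI minimum. With minimums of 50 and 200 UMIs and none it was 499, 174 and 4912 in endothelial-like cells (300 as reported), 258, 65 and 4239 in dendritic-like (140), 160, 38 and 4893 in MuSC/myoblast-like (73), 289, 63 and 4697 in tenocyte-like (131), 340, 74 and 4746 in mural-like (162), 168, 32 and 4391 in T/NK-like (72) and 518, 207 and 5053 in FAP-like cells (336). Macrophage/monocyte-like cells gave 460 with 50 and 4981 with none (301), and the whole library 5137 with none (549) and 320 with the class make-up of young PBS and doublets removed (533 with doublets removed alone). Cells of 5000 to 20000 UMIs gave 91 in endothelial-like, 54 in tenocyte-like and 141 in FAP-like cells. The mean over cells gave 563, 170 and 286 in endothelial-like, MuSC/myoblast-like and tenocyte-like cells, split 257 higher and 306 lower, 85 and 85, and 139 and 147. It split mural-like cells 80 and 139 and the whole library 525 and 265, and median-ratio scaling split mural-like cells 121 and 52. Mural-like cells without endothelial-scoring sub-clusters gave 83.

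Among list medians whose interval left out 0, those on the other side of 0 were myogenic differentiation in MuSC/myoblast-like cells (0.09) and ribosomal proteins in tenocyte-like cells (-0.01), both with the mean over cells, cell cycle in tenocyte-like cells under the stricter filter (0.87), and tendon (0.14) and matrix (0.24) over the whole library in cells of 5000 to 20000 UMIs. The contractile list in mural-like cells was at -0.55 with doublets kept, -0.29 at resolution 0.4, -0.13 in that depth range, -0.35 with the mean over cells and -0.23 without the sub-clusters. Medians whose interval held 0 changed side too, such as venous genes in endothelial-like cells (0.50 and -0.31 with the mean over cells) and interferon-stimulated genes in mural-like cells (0.09 and -0.22 without the sub-clusters). The causes were not tested. The stricter filter was not run for MuSC/myoblast-like and mural-like cells, nor the depth range for MuSC/myoblast-like cells, because fewer than 50 cells were left in a library. No paired analysis was possible because each age had 1 library and no result comes from a test.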
